A study of Mus musculus with 9 samples.

Results

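The chemokine Cxcl12 and its receptors Cxcr4 and Ackr3 (formerly Cxcr7) were followed in Pax3-expressing somite cells of the mouse embryo, with and without the fusion protein PAX3-FKHR. The 3 genes were chosen with earlier results of these data known, and all probe sets annotated to them were taken, with no choice by value. They numbered 5 of the 45037 probe sets tested, 3 for Cxcl12, 1 for Cxcr4 and 1 for Ackr3, and stood for 3 of 18193 named genes. The study hybridised RNA of cells sorted at embryonic day 9.5 from interlimb somites, at the level of their hypaxial dermomyotome, to Affymetrix mouse expression arrays, with 3 samples in each of 3 groups. PAX3FKHR samples were GFP positive cells of Pax3PAX3-FKHR/GFP embryos, in which one Pax3 allele encodes the fusion and the other carries GFP in place of Pax3. GFP+ samples were GFP positive cells of Pax3GFP/+ embryos, which keep one wild-type Pax3 allele. GFP- samples were the GFP negative cells of the same region, and the labels give them no genotype beyond GFP-. The paper describes GFP negative samples as coming from Pax3GFP/+ embryos, although it also lists Pax3+/+ among its array groups.

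Both GFP positive groups had therefore lost the product of one Pax3 allele to GFP, and the fusion allele had been made active by a cross to a PGK-Cre line, which recombines throughout the embryo and not only in somites. Embryos were pooled by genotype, so that a sample was not a single animal. The labels name interlimb somites as the tissue, although their dissociation note speaks of forelimb buds. The 9 arrays had median log2 values between 4.63 and 4.68, and samples of one group correlated at 0.996 to 0.998 across probe sets. Values were log2 signals after robust multi-array averaging (RMA), in which 1 unit is a doubling, and the abundance of different RNAs was not compared between probe sets.

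CXCL12, also called SDF1, is a secreted chemokine that attracts cells carrying the G protein-coupled receptor CXCR4. ACKR3 binds the same chemokine with high affinity, does not couple to G proteins in the usual way, and removes the ligand from the surroundings by internalising it, so that it shapes the gradient that CXCR4 reads. In the embryo the axis guides germ cells, neurons, blood progenitors and endothelial cells, and CXCR4 is carried by a subset of the muscle progenitors that leave the somite for the limb.

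The fusion keeps the paired domain and homeodomain of Pax3, so the 250 bases before the transcription start of each gene were searched for the letters ATTA, a homeodomain core, GTCAC, a paired domain core, and TATAAA, on both strands. The sequences are shown because they are the promoter-proximal DNA of the 3 genes whose RNA is described. They were taken from RefSeq on build GRCm38.p6, run 5′ to 3′ in the direction of the gene and carry the matches in capitals.
Cxcl12, chr6:117168285-117168534, plus strand: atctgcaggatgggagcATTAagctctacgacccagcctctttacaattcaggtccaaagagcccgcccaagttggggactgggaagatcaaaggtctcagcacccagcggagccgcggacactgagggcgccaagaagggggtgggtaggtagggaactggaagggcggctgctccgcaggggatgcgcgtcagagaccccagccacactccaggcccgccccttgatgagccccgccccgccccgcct
Cxcr4, chr1:128592300-128592549, minus strand: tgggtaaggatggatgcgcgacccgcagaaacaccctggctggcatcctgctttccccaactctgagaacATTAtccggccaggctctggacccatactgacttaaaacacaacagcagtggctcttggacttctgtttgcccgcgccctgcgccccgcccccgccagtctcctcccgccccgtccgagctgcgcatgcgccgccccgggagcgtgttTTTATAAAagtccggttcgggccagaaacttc
Ackr3, chr1:90203730-90203979, plus strand: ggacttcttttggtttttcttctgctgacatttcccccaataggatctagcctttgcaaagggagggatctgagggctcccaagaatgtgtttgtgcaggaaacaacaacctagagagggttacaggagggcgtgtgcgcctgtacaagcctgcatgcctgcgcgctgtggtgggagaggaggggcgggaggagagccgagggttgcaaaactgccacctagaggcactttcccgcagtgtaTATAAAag

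The Cxcl12 window held 1 ATTA match, 233 to 230 bases before the start, and the Cxcr4 window held 1, 180 to 177 bases before the start. ATTA was present in 54.9% of 32851 such windows. GTCAC was not among the letters of any of the 3 windows and was present in 39.8% of all windows. TATAAA lay 8 to 3 bases before the Ackr3 start, and overlapping matches on both strands lay 32 to 25 bases before the Cxcr4 start, against 12.4% of all windows with a match. The Cxcl12 window was richest in G and C, at 64.4%, against 61.2% for Cxcr4, 54% for Ackr3 and a median of 52.4% over all windows. No binding was measured on these arrays.

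The ligand was lower with PAX3-FKHR and highest in the GFP+ group. Cxcl12 probe set 1417574_at read 11.34, 11.31 and 11.29 in the 3 GFP+ samples. The PAX3FKHR samples read 10.30, 10.40 and 10.59, and the GFP- samples 10.12, 10.08 and 10.15. All GFP+ samples lay above all others, and the PAX3FKHR samples lay between the other groups without overlapping either. The group means were 11.31 ± 0.0237 in GFP+, 10.43 ± 0.152 in PAX3FKHR and 10.12 ± 0.038 in GFP- (log2, SD, n = 3 each).

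The probe set 1448823_at gave the same order from other probes of the gene. It read 9.27, 9.26 and 9.09 in GFP+, 8.27, 8.41 and 8.49 in PAX3FKHR, and 8.16, 8.17 and 8.14 in GFP-. Again the 3 groups did not overlap. The third probe set, 1439084_at, stayed between 4.94 and 5.18 on all 9 arrays, with overlapping groups and means of 5.10 ± 0.0705, 5.09 ± 0.0262 and 5.05 ± 0.122 in PAX3FKHR, GFP+ and GFP- (SD, n = 3). Its group means ranked between the 55.2 and 56 percentiles of the array, where 1417574_at ranked between the 95.2 and 98.2 percentiles, although probe sets differ in how strongly they bind and these ranks do not compare amounts of RNA. The annotation names the gene and not the transcript that each probe set reads, so it could not be told whether 1439084_at reads another Cxcl12 transcript.

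**Figure D1:**
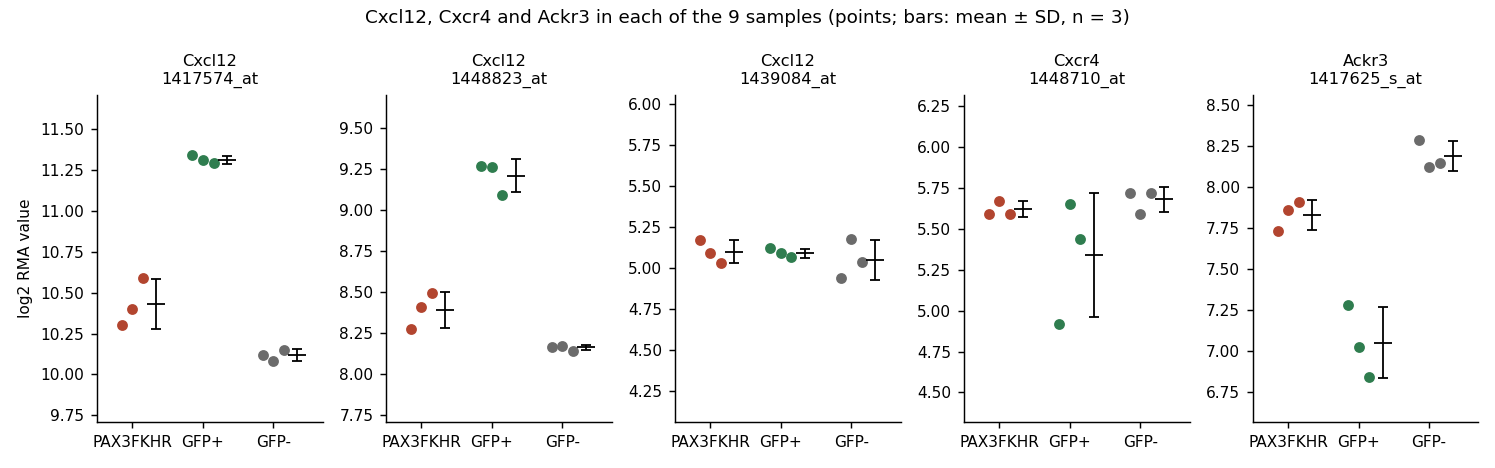
Log2 RMA values of the 3 Cxcl12 probe sets, the Cxcr4 probe set and the Ackr3 probe set (one panel each, all axes spanning the same number of log2 units) in the PAX3FKHR, GFP+ and GFP- samples. Points are single samples and bars the group mean ± SD (n = 3). The GFP+ points lie highest for Cxcl12 1417574_at (11.29 to 11.34) and lowest for Ackr3 (6.84 to 7.28), while the groups overlap for Cxcl12 1439084_at and Cxcr4.

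Ackr3, the scavenging receptor, ran the other way. Its probe set 1417625_s_at read 7.28, 7.02 and 6.84 in GFP+, 7.73, 7.86 and 7.91 in PAX3FKHR, and 8.29, 8.12 and 8.15 in GFP-. The GFP+ samples were the lowest, the GFP- samples the highest, and the PAX3FKHR samples lay between them with no overlap. The means were 7.05 ± 0.219, 7.83 ± 0.0905 and 8.19 ± 0.0926 (SD, n = 3). The suffix s marks a probe set whose probes match more than one transcript, so a contribution from another transcript cannot be told apart.

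Cxcr4, the signalling receptor, was read by 1 probe set, 1448710_at, at 4.92, 5.65 and 5.44 in GFP+, 5.59, 5.67 and 5.59 in PAX3FKHR, and 5.72, 5.59 and 5.72 in GFP-. One GFP+ sample, replicate 1, was low, and the other 8 samples lay between 5.44 and 5.72. The groups overlapped throughout, with means of 5.34 ± 0.378, 5.62 ± 0.0475 and 5.68 ± 0.0743 (SD, n = 3), and neighbours in that order did not differ beyond their spread. Cxcr4 ranked between the 58.6 and 62.2 percentiles of its arrays, and Ackr3 between the 74.9 and 84 percentiles. These ranks place each probe set among all others on the array and do not compare the abundance of the 2 receptors.

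The first comparison of the design asks what the fusion changes among Pax3-expressing cells, and was tested with limma, with Benjamini-Hochberg adjustment over all 45037 probe sets. A probe set was called where its adjusted p was under 0.05 and its log2 difference at least 0.5, which is 1.41-fold. Cxcl12 fell in PAX3FKHR against GFP+ by both bright probe sets. For 1417574_at the log2 difference was -0.89 ± 0.093 (SE, 95% interval -1.09 to -0.68, adjusted p = 0.000492), which left 54.1% of the GFP+ signal. For 1448823_at it was -0.82 ± 0.088 (SE, interval -1.01 to -0.62, adjusted p = 0.00061). Ackr3 rose by 0.79 ± 0.11 (SE, interval 0.54 to 1.03, adjusted p = 0.00377), or 1.72-fold.

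The adjusted p of Ackr3 became 0.0534 when PAX3FKHR replicate 2 was left out, with a log2 difference of 0.77, and stayed under 0.05 without any other sample. In bulk RNA, fewer cells carrying a transcript and less of it per cell cannot be told apart. Nothing in the labels says that the samples were separate litters, so the p-values measure the spread between these samples only. Cxcr4 differed by 0.28 ± 0.16 (SE, interval -0.07 to 0.63, adjusted p = 0.625) and was not called, and its interval holds both no difference and one above the limit. Without GFP+ replicate 1 the Cxcr4 difference was 0.07. Cxcl12 1439084_at differed by 0.00 ± 0.087 (SE, adjusted p = 0.996).

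Of the 5 probe sets, 1 was called higher, where 0.884% of all probe sets were, and 2 were called lower, where 0.473% were. Both lower probe sets read Cxcl12, and the genes were chosen with earlier results known, so these counts are descriptive. The 2 groups did not overlap for 3 of the 5 probe sets, against 13.1% of all probe sets. The median log2 difference over all genes was -0.001, which the normalisation to a common distribution holds near 0, so the differences are relative to the other genes of an array.

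The second comparison sets Pax3-GFP positive against negative cells of the same tissue. Cxcl12 was higher in GFP+ than in GFP- by 1.20 ± 0.046 for 1417574_at (SE, interval 1.09 to 1.30, adjusted p = 1.01e-07), a 2.29-fold difference. For 1448823_at it was higher by 1.05 ± 0.063 (SE, adjusted p = 2.73e-06), a 2.07-fold difference. Ackr3 was lower by -1.14 ± 0.1 (SE, interval -1.37 to -0.90, adjusted p = 6.45e-05), at 45.5% of the GFP- signal. These 3 calls held without each sample in turn. Cxcr4 differed by -0.34 ± 0.16 (SE, interval -0.70 to 0.02, adjusted p = 0.284), which became -0.13 without GFP+ replicate 1. Cxcl12 1439084_at differed by 0.04 ± 0.086 (SE, adjusted p = 0.843). Thus 2 of the 5 probe sets were called higher, where 1.42% of all were, and 1 lower, where 3.24% were. Groups stood apart for 3 of 5, against 23% of all probe sets.

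The third comparison, PAX3FKHR against GFP-, uses the same samples as the other 2 and adds no independent replicates. Neither Cxcl12 probe set was called, with differences of 0.31 ± 0.09 (SE, interval 0.11 to 0.51, adjusted p = 0.0594) and 0.23 ± 0.077 (SE, adjusted p = 0.111). Ackr3 was lower by -0.35 ± 0.081 (SE, interval -0.53 to -0.17, adjusted p = 0.0183), under the limit on the log2 difference and so not called. Cxcr4 differed by -0.06 ± 0.082 (SE, adjusted p = 0.789). No member probe set was called in either direction, where 1.99% of all probe sets were higher and 3.36% lower, although the groups stood apart for 3 of the 5, against 21.5%. On the log2 scale the PAX3FKHR mean lay 25.9% of the way from GFP- to GFP+ for 1417574_at, 21.9% for 1448823_at and 30.9% for Ackr3.

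**Figure D2:**
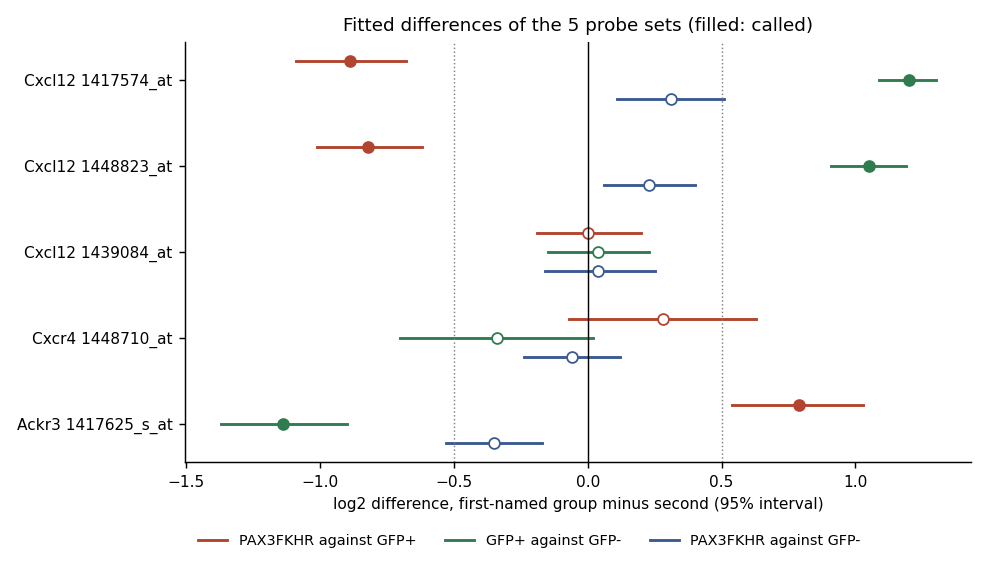
Fitted log2 differences (x axis) of the 5 probe sets in the 3 comparisons, which share samples, with 95% intervals. Filled points were called, and dotted lines mark a log2 difference of 0.5 in either direction. The 2 bright Cxcl12 probe sets and Ackr3 lie on opposite sides of 0 within each comparison, and the Cxcr4 intervals all include 0.

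The balance within a sample was also read. The log2 value of Cxcl12 1417574_at minus that of Ackr3 was 4.06, 4.29 and 4.45 in GFP+, 2.56, 2.53 and 2.69 in PAX3FKHR, and 1.83, 1.96 and 2.00 in GFP-. Its mean differed by -1.67 in PAX3FKHR against GFP+, by 2.33 in GFP+ against GFP- and by 0.66 in PAX3FKHR against GFP-, where neither gene was called. This difference was formed after the values of both genes were known and was not tested. Its size does not say which of the RNAs was more abundant.

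Between the receptors, Ackr3 minus Cxcr4 was 2.36, 1.37 and 1.40 in GFP+, 2.14, 2.19 and 2.32 in PAX3FKHR, and 2.57, 2.53 and 2.43 in GFP-. GFP+ replicate 1, with the low Cxcr4 reading, lay between the ranges of the other groups, while the other 2 GFP+ samples lay below all others. The mean differed by 0.50 between PAX3FKHR and GFP+ (two-sided exact permutation p = 0.4, adjusted over the 3 comparisons 0.4), by -0.80 between GFP+ and GFP- (exact p = 0.1, adjusted 0.15) and by -0.29 between PAX3FKHR and GFP- (exact p = 0.1, adjusted 0.15). With 3 samples against 3, the smallest p the test can give is 0.1.

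Of 33 further chemokine ligand genes measured, 1 rose and none fell in PAX3FKHR against GFP+, beside 1.31% of all genes higher and 0.715% lower, and their median log2 difference was -0.054. That count is near the share over all genes. The mean of the list per sample was 4.19 to 4.42 over the 9 samples, below the array medians, where RMA makes folds smaller. The one that rose was Cxcl5, a ligand of CXCR2 that attracts neutrophils, at 3.52, 3.56 and 3.36 in PAX3FKHR and 2.98, 2.80 and 2.87 in GFP+. All PAX3FKHR samples were higher, by 0.60 ± 0.083 (SE, adjusted p = 0.00319), although all 6 values lay below the array medians. In GFP+ against GFP-, 3 of the 33 ligand genes fell and none rose, beside 1.92% of all genes higher and 5.05% lower. Those were Pf4, a platelet chemokine, at 4.21 against 8.19 (difference -3.97 ± 0.1, SE), Ppbp, also of platelets, at -1.37, and Ccl3, a macrophage chemokine, at -0.56. Ccl3 lay at the limit, with a difference of -0.50 without GFP- replicate 3. In the same comparison all 7 primitive erythroid markers measured were lower, and their part in these falls was not tested.

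The other chemokine receptors were read beside Cxcr4. None of the 19 other chemokine receptor genes was called in PAX3FKHR against GFP+ (median log2 difference -0.019) or in GFP+ against GFP- (median 0.055), beside 1.31% of all genes higher and 0.715% lower in the first and 1.92% higher and 5.05% lower in the second, shares at which few calls would fall among 19 genes. Among them were the other atypical receptors, which like ACKR3 take up chemokines without G protein signalling. Ackr1 differed by 0.00 and -0.10 in the 2 comparisons, Ackr2 by 0.02 and 0.01, and Ackr4 by -0.09 and 0.10. The mean of this list per sample was 3.94 to 4.09 over the 9 samples, below the array medians, where RMA makes folds smaller. Small differences at that level do not show that these receptors were unchanged.

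Of 35 genes for signalling and trafficking below the receptors, 1 fell with the fusion and none rose (median -0.015), beside 0.715% of all genes lower and 1.31% higher. It was Rgs5, a regulator that shortens G protein signals and marks pericytes, at 4.03, 4.03 and 4.12 in PAX3FKHR against 4.56, 4.68 and 4.73 in GFP+ (difference -0.60 ± 0.09, SE, adjusted p = 0.00584). All PAX3FKHR samples lay below GFP+. The adjusted p was 0.0506 without PAX3FKHR replicate 2, and the mean over the gene's probe sets gave -0.23, which was not called. In GFP+ against GFP-, 3 of the 35 fell, beside 5.05% of all genes, namely Rgs5 by -2.36, Rgs10 by -1.16 and Rgs4 by -0.51, the last at the limit and not called in the mean over its probe sets, at -0.11. The beta-arrestins, which carry activated CXCR4 and ACKR3 into the cell, had differences of -0.17 for Arrb1 and -0.22 for Arrb2 with the fusion and were not called.

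None of 26 genes for ligand availability, among them heparan sulphate carriers, proteases that cut CXCL12 and the alternative ACKR3 ligand adrenomedullin, was called with the fusion (median 0.044), beside 1.31% of all genes higher and 0.715% lower. In GFP+ against GFP-, 6 of the 26 fell and none rose (median -0.194), beside 5.05% of all genes lower and 1.92% higher. Sdc4, a heparan sulphate proteoglycan, differed by -1.23, Adm, which encodes adrenomedullin, by -0.82 and Hs6st1, a heparan sulphate sulphotransferase, by -0.78. The other three were Gpc4 at -0.65, Mmp2 at -0.64 and Sulf1 at -0.57, of which Sulf1 lay at the limit, at -0.49 without GFP+ replicate 3 and -0.36 in the mean over its probe sets.

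Regulators and migration partners held the most calls among the 5 lists around the axis, and 7 of their measured genes also stand in the marker lists. Of 19 genes, 3 rose and 3 fell with the fusion, beside 1.31% of all genes higher and 0.715% lower, with a median of 0.046. Lbx1, a homeobox gene of migrating muscle progenitors, read 7.03, 7.26 and 7.31 in PAX3FKHR and 5.80, 5.80 and 5.75 in GFP+, so all PAX3FKHR samples were higher, by 1.42 ± 0.093 (SE). Met, the receptor for hepatocyte growth factor needed for delamination, rose by 1.70 ± 0.086 (SE). In the mean over a gene's probe sets the rises were smaller, at 0.81 for Lbx1 and 0.89 for Met, and still called. Pax7 rose by 0.67. Cxcr4, at 0.28, was not called beside these rises. Pax3 fell by 0.91, with means of 8.29 in PAX3FKHR, 9.20 in GFP+ and 4.50 in GFP-. The paper treats Pax3 as a control, stating that these embryos do not transcribe mouse Pax3, so a fall was set by the genotype. The Pax3 probe set still read far above GFP- in PAX3FKHR, and the source of that signal was not tested.

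Foxc1 and Foxc2, forkhead factors of paraxial and vascular mesoderm, fell with the fusion. Foxc1 is known to promote Cxcl12 expression in bone marrow, and its part in the Cxcl12 values was not tested. Foxc1 read 9.43, 9.42 and 9.53 in PAX3FKHR and 10.19, 9.94 and 9.86 in GFP+ (difference -0.54 ± 0.097, SE, adjusted p = 0.018). Foxc2 read 9.38, 9.52 and 9.70 against 10.11, 10.19 and 9.96 (difference -0.56 ± 0.1, SE, adjusted p = 0.0179). Neither pair of groups overlapped. Both calls were close to the limits. The Foxc1 call was lost without any one of the 6 samples, with differences of -0.61 to -0.44 and adjusted p of 0.051 to 0.16. Foxc2 was lost without any sample except PAX3FKHR replicate 3, with differences of -0.64 to -0.48 over all 6 omissions. The mean over the gene's probe sets gave -0.45 for Foxc1, under the limit on the log2 difference.

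In GFP+ against GFP-, 8 of the 19 rose and 2 fell, beside 1.92% of all genes higher and 5.05% lower. Pax3 (4.70), Meox2 (3.85) and Pax7 (3.36), all dermomyotome factors, had the largest rises of the list. The Pax3 rise was set by the sort, because GFP is made from the Pax3 locus. Msx1 (-1.96), a limb and flank mesenchyme factor, and Epas1 (-1.93), a hypoxia-inducible factor, were the genes that fell. Foxc2 was higher by 2.52 and Foxc1 by 1.70. Hif1a, a hypoxia factor known to induce both Cxcl12 and Cxcr4, differed by 0.00 and 0.01 in the 2 comparisons. Only Hif1a RNA was read, not its protein or activity, and its part in the Cxcl12 and Cxcr4 values was not tested.

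**Figure D3:**
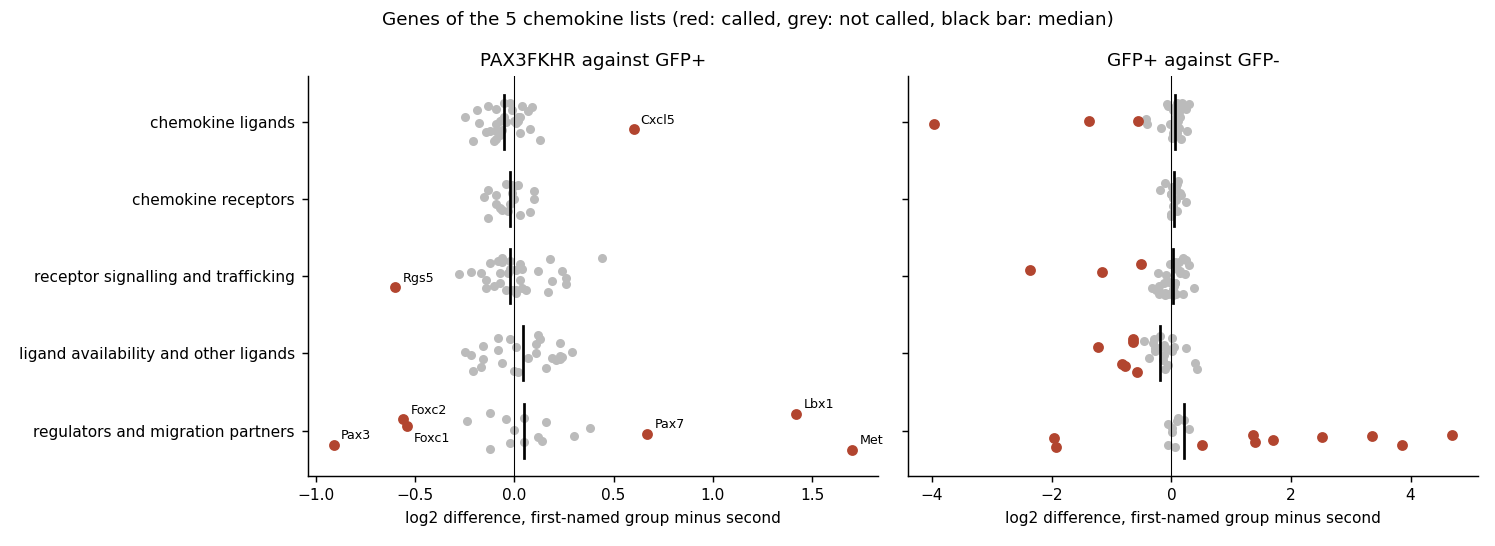
Log2 differences of every measured gene of the 5 lists around the axis, without Cxcl12, Cxcr4 and Ackr3 themselves, in PAX3FKHR against GFP+ (left) and GFP+ against GFP- (right, wider x axis). Each point is a gene read from its brightest probe set, red where called, and black bars are list medians. No chemokine receptor is red in either panel, and the regulators hold 6 called genes on the left and 10 on the right.

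Markers of other cells of the dissected region were read beside these results. With the fusion 1.31% of all genes were called higher and 0.715% lower. In GFP+ against GFP-, 1.92% of all genes were higher and 5.05% lower. Of 10 myotome markers, 7 fell and 1 rose with the fusion, and 8 rose in GFP+ against GFP-. Their mean log2 level per sample was 7.42 to 7.5 in GFP+, 6.52 to 6.64 in PAX3FKHR and 4.75 to 4.94 in GFP-, so they were highest in the group where Cxcl12 was highest. With the fusion the lowest myotome difference was that of Tnnc2 (-2.05), a fast troponin, and the highest that of Myf5 (0.89), a myogenic determination factor. Of 9 sclerotome markers 3 fell and 1 rose with the fusion, with sample means of 7.29 to 7.32 in GFP+, 7.07 to 7.17 in PAX3FKHR and 5.86 to 5.88 in GFP-. The lowest was Fmod at -0.77 and the highest Uncx at 0.73. Whether myotome or sclerotome cells had a part in the Cxcl12 differences was not tested.

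Lists that were higher in GFP- moved with Ackr3 in GFP+ against GFP-. In that comparison 5.05% of all genes were called lower and 1.92% higher. Of 9 lateral and intermediate mesoderm markers 6 fell, down to -4.51 for Hand2, with sample means of 5.02 to 5.09 in GFP+, 5.06 to 5.15 in PAX3FKHR and 6.73 to 6.79 in GFP-. Of 8 surface ectoderm markers 5 fell, down to -4.24 for Krt8 (4.87 to 4.99, 4.97 to 5.08 and 7.31 to 7.39 in the same order). Of 12 endothelial markers 7 fell, down to -1.52 for Cdh5 (5.79 to 5.84, 5.75 to 5.77 and 6.49 to 6.59). All 7 primitive erythroid markers fell, down to -7.01 for Hba-x (5.72 to 5.79, 5.93 to 6.0 and 10.13 to 10.25), and 2 of 8 leukocyte markers fell, down to -1.24 for Csf1r. The part of these cells in the Ackr3 difference was not tested.

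The same lists were read in PAX3FKHR against GFP+, beside 1.31% of all genes higher and 0.715% lower. None of the 12 endothelial, 8 surface ectoderm and 8 leukocyte markers was called in PAX3FKHR against GFP+. Of the lateral mesoderm markers 1 rose, Prrx1 by 0.65, and of the erythroid markers 1, Hbb-y by 0.65. By the sample means given above, the erythroid list was higher in PAX3FKHR than in GFP+ without overlap, the endothelial list lower without overlap, and the surface ectoderm and lateral mesoderm lists overlapped. The leukocyte means were 4.48 to 4.97 in PAX3FKHR, 4.70 to 4.78 in GFP+ and 5.07 to 5.10 in GFP-. The part of these cells in the Ackr3 rise was not tested either.

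The sorted cells matched their label, with 10 of 11 dermomyotome markers higher in GFP+ than in GFP-, up to 5.64 for Dmrt2. Pax3 was among the 10, and its rise was set by the sort on GFP made from the Pax3 locus. Of all genes 1.92% were called higher and 5.05% lower in GFP+ against GFP-. En1, at 2.71 in GFP+, lay below the array medians and was not called. With the fusion 4 of the 11 dermomyotome markers rose and 2 fell, beside 1.31% of all genes higher and 0.715% lower. Pax3, whose fall was set by the genotype, was among those that fell. Neural crest cells also express Pax3 and may have been sorted with the somite cells, and 5 of 6 neural crest markers were higher in GFP+ than in GFP-, up to 3.43 for Sox10. Of the 6, only Tfap2b was called with the fusion, at 0.59, and sample means were 8.46 to 8.56 in GFP+, 8.73 to 8.99 in PAX3FKHR and 6.46 to 6.56 in GFP-. Of 8 neural tube markers 2 rose and 2 fell with the fusion, from -0.78 for Neurog2 to 2.38 for Dbx1, and in GFP+ against GFP- 1 rose and 3 fell. The part of crest and neural tube cells in the Cxcl12 and Ackr3 values was not tested.

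Genes with the pattern most like each member were found by the root mean square (RMS) difference of log2 values over the 9 samples, each gene centred on its own mean, among 18192 other genes. Because the nearest genes were chosen on these same values, group differences like those of the member follow from the choice. Cxcl12 itself varied with an RMS of 0.51 about its mean. The 5 nearest genes were Klhl41, a sarcomere-associated kelch protein (RMS difference 0.12), Sparcl1, a secreted matrix protein (0.12), Col9a1, a collagen chain of cartilage (0.13), Mef2c, a muscle transcription factor (0.13), and L1cam, a neural adhesion molecule (0.14). They differed by -0.87, -1.14, -0.67, -0.61 and -0.73 in PAX3FKHR against GFP+, in that order, against -0.89 for Cxcl12. Klhl41, with means of 3.26, 4.14 and 3.1 in PAX3FKHR, GFP+ and GFP-, lay below the array medians. Only 6 genes lay within 0.15 of Cxcl12.

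Ackr3, with an RMS of 0.49 about its mean, also had 6 genes within 0.15. The nearest was Bcl11b, a zinc finger factor (0.088), followed by Bnc2, a zinc finger protein (0.12), Tgfb2, a growth factor (0.13), Map3k5, a stress kinase (0.13), and Adcy7, an adenylyl cyclase (0.13). Their differences in PAX3FKHR against GFP+ were 0.65, 0.54, 0.77, 0.96 and 0.82, against 0.79 for Ackr3, and in GFP+ against GFP- they were -1.10, -1.01, -0.97, -1.32 and -0.99, against -1.14.

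Cxcr4, which varied by an RMS of 0.24, had 88 genes within 0.15, so that its nearest genes, Arid4a (0.07), Zfp553 (0.077), Chd4 (0.088), Gm20199 (0.092) and Myo10 (0.094), were less set apart from the rest. All 5 were at least 0.20 higher in PAX3FKHR than in GFP+, beside 0.28 for Cxcr4. These are descriptions over 9 samples of 3 groups, and the same arrays carry all of them.

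**Figure D4:**
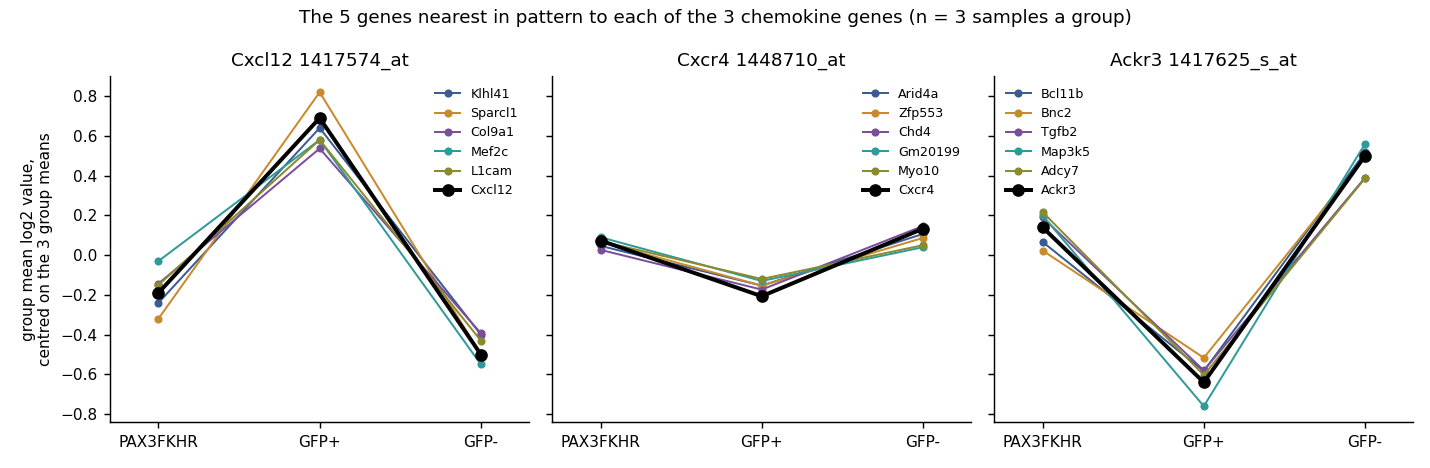
Group means of log2 values, centred on the 3 group means (y axis), for Cxcl12 1417574_at, Cxcr4 and Ackr3 (black) and the 5 genes nearest to each in pattern (colours). Cxcl12 and its nearest genes peak in GFP+, Ackr3 and its nearest genes are lowest in GFP+, and the Cxcr4 panel is flat by comparison. The likeness within a panel follows from how the genes were chosen.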

How the data were processed

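RNA of 9 sorted samples was hybridised to Affymetrix mouse expression arrays after a repeated amplification, and the authors deposited log2 values made by RMA in 1 table of 45101 rows. RMA fits all arrays together, which makes spread small and folds of dim probe sets smaller than they are. The version of the RMA software was not found in the sources used here. The 64 Affymetrix control probe sets were left out. GEO's platform annotation gave 1 symbol for 34945 probe sets, several for 932 and none for 9160, and no gene was named from a probe set with several. Each comparison was fitted to its 6 samples with limma 3.58.1 (R 4.3.3, eBayes with an intensity trend, two-sided), without the study's removal of probe sets called absent, and the test was checked on simulated data. List genes were read from their brightest single-symbol probe set.

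The named genes were all member probe sets, every list gene called in PAX3FKHR against GFP+, up to 3 rises and 3 falls per list in GFP+ against GFP-, the highest and lowest gene of marker lists, and the 5 genes nearest in pattern. Gpc4, Mmp2, Sulf1, Foxc1, Foxc2, the atypical receptors, arrestins and Hif1a in comparisons where that rule does not take them were named after their values were seen. Members and lists were chosen with earlier results of these data known. Alternatives were all 9 samples in one fit, no trend, a replicate block, each sample left out, median centring, quantile normalization, dim probe sets left out (mean under 5 in both groups compared), the local pooled error test of the study's methods, no limit on the log2 difference and the mean over a gene's probe sets. The precision is limited by 3 arrays a group.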

Additional observations from a re-analysis of the deposited data

How the results depend on the processing

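No called result changed direction under any alternative run. The Cxcl12 probe set 1439084_at, never called, changed sign, with 0.04 becoming -0.02 in GFP+ against GFP- and -0.01 in PAX3FKHR against GFP- without GFP- replicate 1, and a range of -0.03 to 0.04 in PAX3FKHR against GFP+. The calls of both bright Cxcl12 probe sets in PAX3FKHR against GFP+ and in GFP+ against GFP- were kept under all of them. With no limit on the log2 difference, Ackr3 in PAX3FKHR against GFP- passed at -0.35, and the probe sets called numbered 3947 in GFP+ against GFP- and 4029 in PAX3FKHR against GFP-. With that setting, signalling genes called were 2 with the fusion and 6 in GFP+ against GFP-, and ligand availability genes 10 in GFP+ against GFP-. Without dim probe sets, chemokine ligands called were 0 with the fusion and 1 in GFP+ against GFP-, and signalling genes called with the fusion 0, because fewer genes were tested. With the mean over a gene's probe sets, ligands called in GFP+ against GFP- were 5 and signalling genes with the fusion 0.

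With each sample left out in turn, Ackr3 in PAX3FKHR against GFP+ ranged from 0.68 to 0.90 (adjusted p 0.00313 to 0.0534). Probe sets called there numbered 358 to 578, against 611 with all samples: 358 without PAX3FKHR replicate 2, 383 without GFP+ replicate 2 and 386 without GFP+ replicate 3. Signalling genes called there ranged from 0 to 1. Replicate numbers were not used to pair the samples in the main fits. Deviations from the group means of same-numbered samples correlated between -0.195 and 0.256, and those of differently numbered samples between -0.219 and 0.23. With means of 3 samples, these correlations cannot tell whether the numbers pair samples. A replicate block left the Ackr3 difference in PAX3FKHR against GFP+ at 0.79 (limma adjusted p 0.011) and gave 603 called probe sets. It changed no call of a member or of a named list gene. With the block, sign changes within pairs gave exact p = 0.5, 0.25 and 0.25 for Ackr3 minus Cxcr4. With 3 pairs, the smallest p that this sign test can give is 0.25.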
